A study of Homo sapiens with 30 samples.

Results

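OVGP1 and 9 other genes (CMYA5, DCAF4L1, RASL11A, LRIT3, KLB, PHKG1, SRRM5, GUCA1B and DHPS) were followed through every library of a spliceosome inhibitor experiment. They were picked for large rises with pladienolide B (PB) in the control cells or in the SUGP1 mutant cells, so their rises there are given as a description, with no test. All 10 were found in the table of 61487 genes by symbol and identifier, and all 10 were among the 31495 genes with enough counts to be tested. What the choice did not use is how they moved in the PHF5A and SF3B1 mutant cells, what lies next to them in the genome and how their relatives behaved.

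The experiment asked how mutations found in resistance to PB, in 3 spliceosome proteins, alter splicing. All cells were eHAP FNLS: eHAP is a haploid human line derived from HAP1, which came from a chronic myeloid leukaemia, and FNLS is a cytosine base editor that every line carried, control included. The 5 genotypes were a control line transduced with a non-targeting guide RNA, PHF5A 2xTL (a 6-nucleotide insertion at T40-L41, guide PHF5A_6), SF3B1 T1080I (guide SF3B1_166), SUGP1 E554K (guide SUGP1_238) and SUGP1 G603N (guide SUGP1_188). Each was treated for 3 h with DMSO, the solvent, or with 2 nM PB, which gives 10 groups of 3 RNA-seq libraries. The 3 libraries of a mutant group came from 3 independently derived monoclonal lines, treated with DMSO and with PB. Those of the control were 3 replicates of 1 line, so the control spread is that between cultures and the mutant spread also that between clones.

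PB binds SF3b, the part of the U2 snRNP that recognises the branch point of an intron, in a pocket formed by SF3B1 and PHF5A. Substitutions in that pocket are known to weaken the binding of PB. SUGP1, which carries a G-patch domain, acts beside SF3B1 in the choice of the branch point and is not part of the pocket. Blocking SF3b mostly retains introns and skips exons, and many transcripts of a treated cell fall, so genes whose counts rise within hours are the less usual case.

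Most of the 10 genes are known from specialised tissues. OVGP1 is a secreted chitinase-like glycoprotein of the oviduct. CMYA5 (myospryn) and PHKG1, the catalytic subunit of muscle phosphorylase kinase, belong to striated muscle. LRIT3 is a membrane protein that bipolar cells of the retina need for their light response, and GUCA1B is a calcium-sensing activator of the guanylate cyclase of photoreceptors. KLB (beta-klotho) is the co-receptor for FGF19 and FGF21 in liver and fat. RASL11A is a small Ras-like GTPase, DCAF4L1 a WD-repeat protein resembling the substrate receptors of CUL4-DDB1 ubiquitin ligases, SRRM5 a little-studied serine and arginine repeat protein, and DHPS deoxyhypusine synthase, which starts the modification of eIF5A that growing cells require.

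The proximal promoters of 7 of the 10 genes were matched by symbol in a RefSeq table (GRCh38.p14) that gives 250 bases before and 50 after a gene's start. OVGP1, DCAF4L1 and GUCA1B had no entry. The 4 below are shown because genes that moved together had starts of very different composition: CMYA5 (chr5:79689586-79689885) and RASL11A (chr13:27270580-27270879) are rich in G and C, LRIT3 (chr4:109847857-109848156) and KLB (chr4:39406680-39406979) are not, and all lie on the plus strand. Capitals mark GGGCGG, the core of the GC box, or its complement CCGCCC.
CMYA5: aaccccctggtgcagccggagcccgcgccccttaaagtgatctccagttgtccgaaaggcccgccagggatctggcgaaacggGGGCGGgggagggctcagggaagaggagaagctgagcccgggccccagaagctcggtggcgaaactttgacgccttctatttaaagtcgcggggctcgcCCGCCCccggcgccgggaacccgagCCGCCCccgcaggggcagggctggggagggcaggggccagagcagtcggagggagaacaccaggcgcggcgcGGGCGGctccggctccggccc
RASL11A: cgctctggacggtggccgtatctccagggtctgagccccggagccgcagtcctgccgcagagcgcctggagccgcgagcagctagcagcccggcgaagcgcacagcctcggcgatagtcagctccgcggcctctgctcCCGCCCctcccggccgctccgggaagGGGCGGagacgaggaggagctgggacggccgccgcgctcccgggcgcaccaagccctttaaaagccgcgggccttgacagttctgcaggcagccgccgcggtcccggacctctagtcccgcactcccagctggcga
LRIT3: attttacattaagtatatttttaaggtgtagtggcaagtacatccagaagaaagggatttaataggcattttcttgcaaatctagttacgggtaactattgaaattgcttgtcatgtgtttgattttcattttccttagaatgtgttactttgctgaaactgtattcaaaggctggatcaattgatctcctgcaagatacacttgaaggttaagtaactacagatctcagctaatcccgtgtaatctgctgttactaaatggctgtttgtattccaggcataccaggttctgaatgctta
KLB: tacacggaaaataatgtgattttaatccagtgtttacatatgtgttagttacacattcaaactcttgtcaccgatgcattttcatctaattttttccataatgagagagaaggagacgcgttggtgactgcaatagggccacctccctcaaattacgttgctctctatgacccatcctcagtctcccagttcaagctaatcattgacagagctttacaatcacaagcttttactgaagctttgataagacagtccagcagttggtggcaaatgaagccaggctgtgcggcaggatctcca

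The G and C content of these windows was 72% for CMYA5, 73% for RASL11A, 35.3% for LRIT3 and 42.3% for KLB, and 58% for PHKG1, 54.3% for SRRM5 and 56.7% for DHPS. The median over 35116 promoters was 58.7%, with 80% of them between 39% and 74.7%, so the 7 genes spanned nearly the whole range. Each motif was searched on both strands of the window, and matches to different motifs did not overlap in these 7 windows. GGGCGG was found in 4 of the 7 windows (CMYA5, RASL11A, PHKG1 and DHPS) and in 45% of all promoters. CCAAT was found in 1 (DHPS) against 34.6% of promoters. The TATA box core TATAAA, held by 11.5% of promoters, and the cyclic AMP response element TGACGTCA, held by 1.85%, were found in none of the 7. A match is a run of letters and not a measured binding site.

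Libraries held 31592502 to 75037259 estimated counts. Between 10.1% and 17.9% of the counts came from the mitochondrial genome, with the highest share in line 3 of SUGP1 E554K (15% with DMSO, 17.9% with PB). Of 39 marker genes of other cell types, 30 were tested and 11 reached 1 CPM (count per 1000000 counts of the scaled library) in the control with DMSO. None of the 6 hepatocyte and none of the 6 haematopoietic markers did, against 4 of 5 markers of adherent, fibroblast-like cells, 3 of 6 of the oviduct (PAX8, WT1 and ESR1), 2 of 8 of striated muscle and 2 of 8 of photoreceptors. None of the 30 was called with PB in any genotype (edgeR quasi-likelihood test, Benjamini-Hochberg adjusted p under 0.05), where 4.3% of all tested genes were called in the control, 4.32% in SUGP1 E554K and 4.08% in SUGP1 G603N, and 0.00318% in each of PHF5A 2xTL and SF3B1 T1080I. An unadjusted p under 0.05 was found for 1 marker in the control, 4 in SUGP1 E554K, 3 in SUGP1 G603N and 0 in the other genotypes. Of all tested genes, 1.29% in PHF5A 2xTL and 0.883% in SF3B1 T1080I had such a p. That share is not given for the control and the SUGP1 genotypes, so their marker counts are a description. With a replicate block edgeR called PAX8 in SUGP1 E554K (-1.09, adjusted p = 0.00491) and CKM, of striated muscle, in SUGP1 G603N (-3.08, adjusted p = 0.0494). With that block 11.3% and 9.25% of all tested genes were called in these genotypes. CKM was near the floor, at no more than 0.597 CPM in any library. The haematopoietic markers summed to 0.288 to 1.34 CPM per library. In RNA from whole cultures, more transcripts per cell and more cells that transcribe a gene cannot be told apart.

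The 10 genes were scarce in the control with DMSO, with means of 1.15 (PHKG1) to 4.04 CPM (DCAF4L1). Over all 30 libraries, those with PB included, their means were 3.24 to 6.37 CPM, with 30 to 1168 estimated counts per gene and library (median 161). Scaled to transcript length, the control levels with DMSO ran from 0.126 ± 0.0383 CPM per kb for CMYA5 to 1.17 ± 0.195 for DHPS (SD, n = 3), with OVGP1 at 0.484 ± 0.155 in the seventh place. With PB the order began with OVGP1 at 5.22 ± 0.296 CPM per kb, followed by RASL11A at 2.99 ± 0.914, and ended again with CMYA5 at 0.729 ± 0.0882. All other values below are CPM without length scaling and compare 1 gene between libraries.

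OVGP1 stood at 0.828, 1.61 and 1.22 CPM in the 3 control libraries with DMSO and at 13.8, 12.3 and 13.3 CPM with PB. Every PB library lay far above every DMSO library. In SUGP1 E554K it went from 1.58, 1.40 and 1.65 CPM to 7.32, 18.7 and 20.7 CPM, and in SUGP1 G603N from 0.791, 1.85 and 1.76 CPM to 7.47, 14.8 and 28.1 CPM, in the order of lines 1 to 3. PB and DMSO libraries did not overlap in these 3 genotypes. The levels with PB spread far more between the SUGP1 lines than between the control cultures: the SD was 7.22 and 10.4 CPM in the SUGP1 genotypes and 0.747 CPM in the control.

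In PHF5A 2xTL, OVGP1 was at 1.20, 1.1 and 1.41 CPM with DMSO and at 1.85, 1.24 and 1.72 CPM with PB. In SF3B1 T1080I it was at 1.50, 0.680 and 1.55 CPM with DMSO and 2.25, 1.46 and 2.08 CPM with PB. The ranges overlapped in both, although all 6 lines were higher with PB. The log2 fold change was 0.37 ± 0.41 (SE) in PHF5A 2xTL, with a 95% interval from -0.47 to 1.22, and 0.63 ± 0.41 in SF3B1 T1080I, with an interval from -0.20 to 1.47 (edgeR, adjusted p = 1 for both). For comparison, the fitted log2 fold changes that went into the choice were 3.42 ± 0.43 in the control, 3.33 ± 0.42 in SUGP1 E554K and 3.52 ± 0.43 in SUGP1 G603N.

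Ordered by mean, the 10 groups fell into 2 sets for OVGP1. PB in SUGP1 G603N (16.8 ± 10.4 CPM), SUGP1 E554K (15.6 ± 7.22) and the control (13.1 ± 0.747) came first and overlapped each other. The other 7 groups followed between 1.93 ± 0.416 CPM (SF3B1 T1080I with PB) and 1.22 ± 0.391 CPM (control with DMSO), each overlapping the next. The gap between control PB and SF3B1 T1080I PB was the only place where adjacent groups did not overlap.

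**Figure D1:**
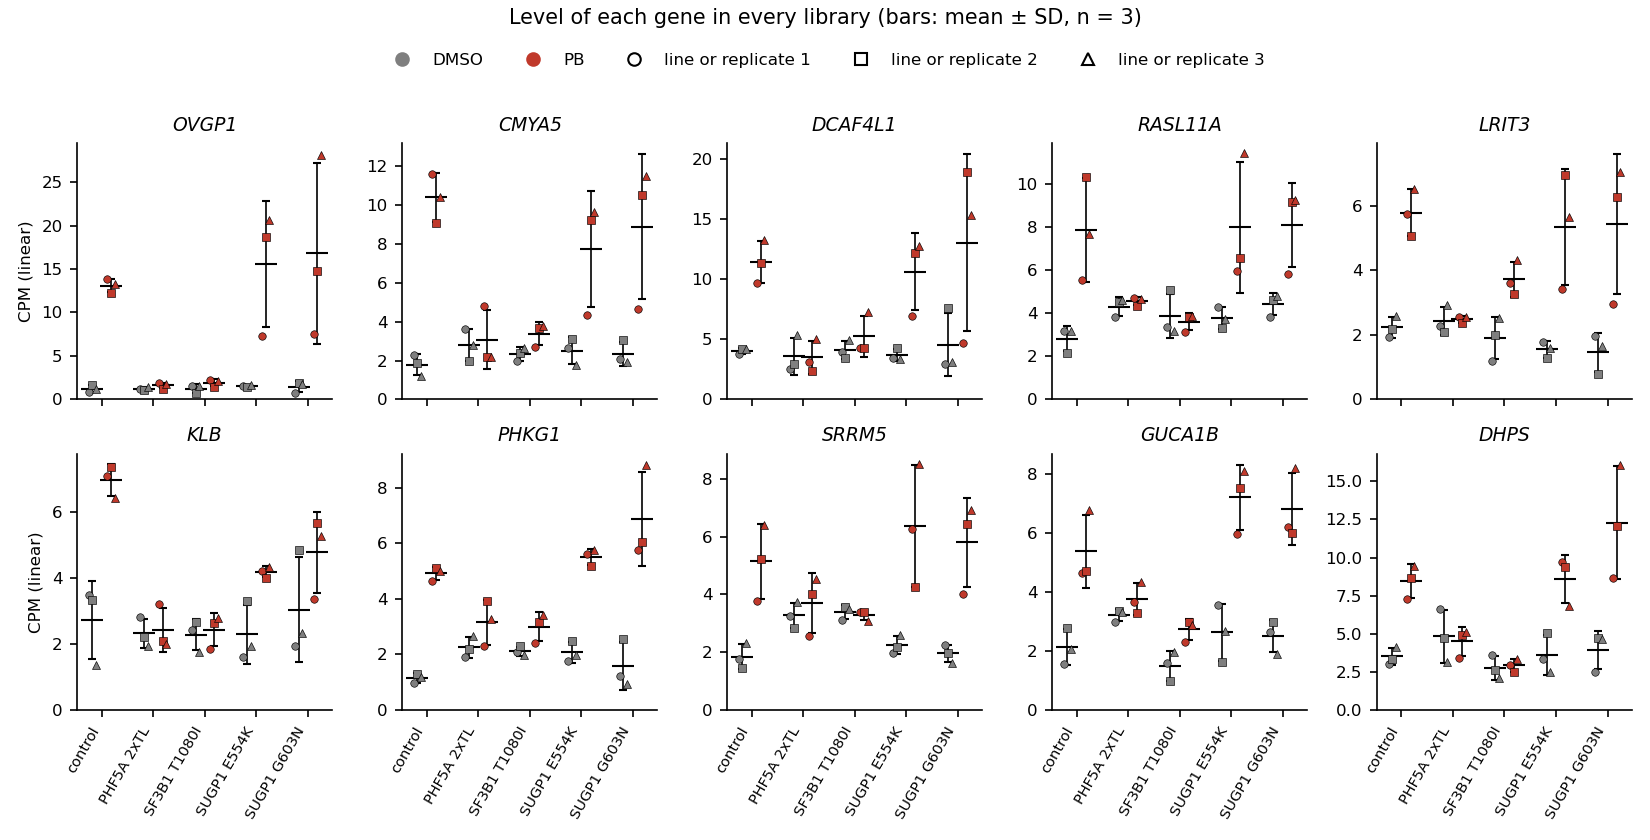
Level of each of the 10 genes (panels; linear vertical axis, CPM) in all 30 libraries, by genotype; grey points are DMSO and red points PB, the symbol gives the line or replicate, and bars are the mean and SD of 3 libraries. For OVGP1 the PB libraries of the control and of both SUGP1 genotypes lie at 7.32 to 28.1 CPM, and all others at or below 2.25 CPM.

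CMYA5, a large scaffold protein of the muscle costamere, had the next largest change in the control. It went from 2.27, 1.89 and 1.20 CPM to 11.6, 9.10 and 10.4 CPM there (fitted log2 fold change 2.54 ± 0.38). In SUGP1 E554K it went from 2.63, 3.13 and 1.75 CPM to 4.32, 9.23 and 9.65 CPM, and in SUGP1 G603N from 2.06, 3.05 and 1.91 CPM to 4.63, 10.5 and 11.5 CPM. Groups did not overlap in any of these genotypes, and line 1 was the lowest with PB in both SUGP1 genotypes. In SF3B1 T1080I the values were 1.95, 2.38 and 2.66 CPM with DMSO and 2.70, 3.68 and 3.76 CPM with PB, which do not overlap but lie close together. PHF5A 2xTL held 3.64, 2.00 and 2.78 CPM with DMSO and 4.81, 2.20 and 2.20 CPM with PB, and overlapped. The log2 fold changes, 0.54 (95% interval -0.21 to 1.28) and 0.13 (-0.61 to 0.88), were not called by edgeR.

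PHKG1, the other muscle gene, started from the lowest CPM in the control with DMSO of the 10. It was at 0.969, 1.29 and 1.20 CPM with DMSO and at 4.64, 5.10 and 5.01 CPM with PB in the control. With PB it reached 5.62, 5.20 and 5.75 CPM in SUGP1 E554K and 5.75, 6.06 and 8.82 CPM in SUGP1 G603N, above every DMSO library of those genotypes (highest 2.56 CPM). Unlike most of the 10, it was higher with PB in all 3 lines of PHF5A 2xTL as well (1.92, 2.19 and 2.67 CPM to 2.29, 3.91 and 3.28 CPM). It was also higher in all 3 of SF3B1 T1080I (2.08, 2.29 and 1.97 CPM to 2.40, 3.18 and 3.41 CPM), which held for 6 of the 10 genes. These changes, 0.49 ± 0.29 and 0.50 ± 0.29 on the log2 scale, had 95% intervals that reached -0.11 and -0.09 and were not called (edgeR, adjusted p = 1). Its DMSO level was also higher in the mutants than in the control, at means of 2.26 CPM in PHF5A 2xTL, 2.1 in SF3B1 T1080I, 2.07 in SUGP1 E554K and 1.58 in SUGP1 G603N against 1.15 CPM, a description since the control libraries served in the choice. Of its exon bases, 14% are shared with SUMF2 on the opposite strand.

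Among the genes known from the retina, LRIT3 was at 1.94, 2.17 and 2.59 CPM with DMSO and 5.76, 5.07 and 6.53 CPM with PB in the control. It went from 1.78, 1.27 and 1.60 CPM to 3.41, 6.97 and 5.65 CPM in SUGP1 E554K, and from 1.96, 0.783 and 1.64 CPM to 2.96, 6.28 and 7.04 CPM in SUGP1 G603N. It also had the largest change of the 10 in SF3B1 T1080I, from 1.20, 1.99 and 2.51 CPM to 3.61, 3.26 and 4.33 CPM, with no overlap. That change was 0.97 ± 0.33 on the log2 scale (95% interval 0.29 to 1.65, unadjusted p = 0.00674), and it did not pass edgeR's Benjamini-Hochberg adjustment over all tested genes (adjusted p = 1). In PHF5A 2xTL, with 2.29, 2.09 and 2.93 CPM against 2.54, 2.37 and 2.54 CPM, the change was 0.03 (95% interval -0.65 to 0.71).

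GUCA1B, with a fitted log2 fold change of 1.33 ± 0.29 in the control (1.56, 2.77 and 2.06 CPM to 4.64, 4.71 and 6.80 CPM), followed the same course. In SUGP1 E554K it went from 3.56, 1.63 and 2.69 CPM to 5.97, 7.53 and 8.12 CPM, and in SUGP1 G603N from 2.63, 3.00 and 1.91 CPM to 6.21, 5.99 and 8.22 CPM. SF3B1 T1080I lines had 1.58, 0.966 and 1.97 CPM with DMSO and 2.31, 3.00 and 2.87 CPM with PB, again without overlap (log2 fold change 0.86 ± 0.29, 95% interval 0.26 to 1.46, unadjusted p = 0.0068, edgeR adjusted p = 1). PHF5A 2xTL lines had 2.99, 3.35 and 3.33 CPM with DMSO and 3.65, 3.30 and 4.35 CPM with PB, which overlapped. The baseline of SF3B1 T1080I was the lower of these: with DMSO its 3 lines all lay below the 3 of PHF5A 2xTL, a log2 difference of -1.10 ± 0.29 (unadjusted p = 0.000853). By edgeR that difference was not called (adjusted p = 0.358), whereas DESeq2 called it (-1.11, adjusted p = 0.0422). Its relative GUCA1A, 4.34 kb downstream on the opposite strand, was at 0.0668 and 0.249 CPM with DMSO and PB in the control.

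KLB had the smallest change of the 10 in the SUGP1 genotypes. In the control it went from 3.48, 3.35 and 1.37 CPM to 7.10, 7.38 and 6.44 CPM. With PB it stood at 4.23, 4.01 and 4.35 CPM in SUGP1 E554K and at 3.36, 5.68 and 5.29 CPM in SUGP1 G603N, where line 2 was already at 4.86 CPM with DMSO and the groups overlapped. The fitted log2 fold change there was 0.66 ± 0.35, and its 95% interval began below 0 (-0.06 to 1.37). In PHF5A 2xTL and SF3B1 T1080I its means with PB were both 2.43 CPM, against 2.33 and 2.28 CPM with DMSO. The FGF receptors were abundant and, without a replicate block, not called with PB in the control. FGFR1 was at 223 and 215 CPM and FGFR4 at 15.9 and 17.3 CPM with DMSO and PB. With the block edgeR called FGFR2 (-0.31, adjusted p = 0.0481) and FGFR3 (-0.40, adjusted p = 0.0299) lower there, but not FGFR1 or FGFR4. It also called KL, a relative of KLB at 1.24 CPM with DMSO, lower (-2.62, adjusted p = 0.00549). The ligands FGF19 and FGF21 stayed below 0.5 CPM in every library.

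RASL11A went from 3.17, 2.15 and 3.15 CPM to 5.55, 10.3 and 7.64 CPM in the control, to 5.93, 6.54 and 11.4 CPM in SUGP1 E554K and to 5.83, 9.15 and 9.23 CPM in SUGP1 G603N, above all DMSO libraries of the same genotype. It was 1 of the 2 genes with a negative change in SF3B1 T1080I (-0.10 ± 0.27, 95% interval -0.65 to 0.44), where 1 of 3 lines was higher with PB. DCAF4L1 consists of 1 exon, as do 2.51% of 16240 tested protein-coding genes, so its transcript has no intron to remove. It went from 3.74, 4.21 and 4.16 CPM to 9.70, 11.3 and 13.2 CPM in the control and from 3.47, 4.26 and 3.37 CPM to 6.93, 12.2 and 12.7 CPM in SUGP1 E554K. In SUGP1 G603N every line was higher with PB, but line 1 with PB (4.72 CPM) lay below line 2 with DMSO (7.57 CPM).

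SRRM5 and DHPS share exon bases with other genes, 26.9% and 41.8% in GENCODE release 29, and their counts depend on how the shared reads were assigned. SRRM5 went from 1.77, 1.46 and 2.33 CPM to 3.78, 5.23 and 6.39 CPM in the control, and the genes that overlap it, ZNF428 (14.1 to 20.2 CPM) and ZNF576 (11.5 to 14.0 CPM), were not called (edgeR, adjusted p = 0.391 and 0.588). It reached 4.27 to 8.51 CPM with PB in SUGP1 E554K and 4.03 to 6.92 CPM in SUGP1 G603N. In SF3B1 T1080I its mean was 3.39 CPM with DMSO and 3.28 CPM with PB, and in PHF5A 2xTL 3.28 and 3.71 CPM. With DMSO the means of both lay above that of the control (1.85 CPM), a description since the control libraries served in the choice.

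DHPS was at 3.00, 3.37 and 4.14 CPM with DMSO and 7.26, 8.64 and 9.46 CPM with PB in the control, and reached 9.69, 9.35 and 6.79 CPM in SUGP1 E554K and 8.68, 12.1 and 16.1 CPM in SUGP1 G603N. It was the lower of the 2 genes with a negative change in PHF5A 2xTL (-0.11 ± 0.31, 95% interval -0.73 to 0.52), where line 1 went from 6.63 to 3.43 CPM. Levels of other genes that share exons are given for comparison. Of protein-coding genes with at least 95% of exon bases shared on the same strand only, 271 of 283 lay below 0.1 CPM. Of those with at least 95% shared on the opposite strand only, 14 of 17 did, against 24.1% of the 11056 that share none. Whether such genes are expressed in these cells was not tested. WDR83OS, with 89.6% shared, was at 0 to 0.295 CPM in all libraries, and WDR83, with 63% shared, at 4.28 to 9.68 CPM. DHPS shares 38.5% of its exon bases on the same strand and 3.86% on the opposite strand. Whether the deposited counts leave out any of the DHPS RNA was not tested. Among the 10 genes, 7 share no exon base with another gene, as do 53.2% of tested protein-coding genes.

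Over all 10 genes, the PB libraries lay above all DMSO libraries for 10 genes in the control (11% of all tested genes did so there), 10 in SUGP1 E554K (7.54%) and 8 in SUGP1 G603N (5.8%), counts that the choice of genes used. In the genotypes it did not use, this held for 4 genes in SF3B1 T1080I (CMYA5, LRIT3, PHKG1 and GUCA1B), against 3.26% of all tested genes, and for 0 in PHF5A 2xTL, against 4.26%. All 10 genes were higher with PB in each replicate or line of the control (21.3% of all tested genes were), of SUGP1 E554K (18.4%) and of SUGP1 G603N (12.5%), again as chosen, against 6 genes in SF3B1 T1080I (12.4%) and 2 in PHF5A 2xTL (13.2%). The 3 highest group means belonged to PB in the control and in both SUGP1 genotypes for all 10 genes. For 5 of them (OVGP1, RASL11A, PHKG1, GUCA1B and DHPS) each of those 9 libraries exceeded each of the other 21.

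In the tests that the choice left free, none of the 10 genes was called. In PHF5A 2xTL the log2 fold changes with PB ran from -0.11 to 0.49 with a median of 0.109, beside 0.0047 for all tested genes, and no gene had an unadjusted p under 0.05 (1.29% of all genes did). In SF3B1 T1080I they ran from -0.10 to 0.97 with a median of 0.426, beside -0.0065 for all genes, and 2 had an unadjusted p under 0.05 (0.883% of all genes), LRIT3 and GUCA1B. edgeR called 0.00318% of all tested genes, 1 gene, in either genotype. Pooling both genotypes gave a median of 0.247 and the same number called over all genes, 0.00318%, and the members with an unadjusted p under 0.05 were LRIT3 (0.50), PHKG1 (0.49) and GUCA1B (0.54), against 1.34% of all genes. The upper ends of the 95% intervals show what these lines could still hide: 1.22 for OVGP1 in PHF5A 2xTL and 1.47 in SF3B1 T1080I, below the fitted changes of 3.33 to 3.52 in the other genotypes. In SF3B1 T1080I the interval of LRIT3 (0.29 to 1.65) includes its control value of 1.37, and that of GUCA1B (0.26 to 1.46) its control value of 1.33. In a simulation of PB in PHF5A 2xTL, the test called 58% of genes changed by 1 on the log2 scale and 91% of those changed by 2. The simulation held 100 changed genes of each size, and the adjustment is less strict where more genes change. With 1 gene called in the real comparison, these shares do not give how often a change in the 10 genes would be called.

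**Figure D2:**
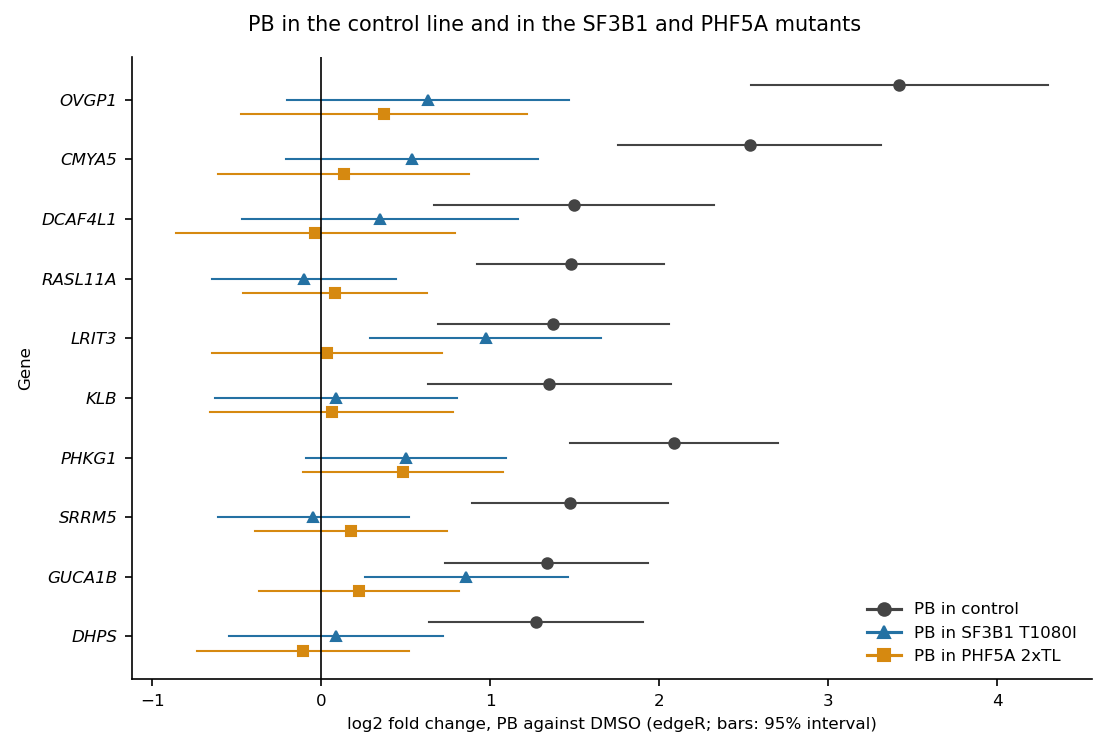
Log2 fold change with PB (horizontal axis) of the 10 genes in the control, in SF3B1 T1080I and in PHF5A 2xTL, with 95% intervals from the edgeR fit; the control values are those the genes were chosen for. The intervals of LRIT3 and GUCA1B in SF3B1 T1080I begin at 0.29 and 0.26, and all other intervals of both mutants include 0.

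SF3B1 T1080I and PHF5A 2xTL were also compared directly. With DMSO, GUCA1B (above) and DHPS (-0.81 ± 0.31, unadjusted p = 0.0141, edgeR adjusted p = 0.781) were lower in SF3B1 T1080I at an unadjusted p under 0.05, which 4.77% of all tested genes reached. With PB no member had an unadjusted p under 0.05 (5.27% of all genes), and the smallest belonged to DHPS (-0.61 ± 0.31, unadjusted p = 0.0577, edgeR adjusted p = 0.969). The difference in PB response between the genotypes was largest for LRIT3, 0.94 ± 0.47 (95% interval -0.02 to 1.90, unadjusted p = 0.0547, edgeR adjusted p = 1). None of the 10 had an unadjusted p under 0.05 in that comparison (1.17% of all genes). edgeR called 0% of all genes in these 3 comparisons.

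Single lines differed in how far the genes moved. The median log2 change over the 10 genes was 1.46, 1.61 and 1.67 in the 3 control replicates, 1.18, 1.28 and 1.66 in lines 1, 2 and 3 of SUGP1 E554K, and 0.989, 1.33 and 2.08 in those of SUGP1 G603N. In SF3B1 T1080I it was 0.16, 0.384 and 0.538, and in PHF5A 2xTL 0.267, 0.0988 and 0.161. Line 1 had the lowest PB level for 6 of the 10 genes in SUGP1 E554K and for 9 in SUGP1 G603N, and line 3 the highest for 8 in each. The wider response did not rank the lines in this order. It was regressed on the control changes over 1042 other genes, those called in the control with a mean of 4 CPM or more. Lines 1, 2 and 3 had a slope of 0.88, 0.848 and 0.874 in SUGP1 E554K and of 0.882, 0.903 and 0.712 in SUGP1 G603N. Line 3 of G603N, with the highest median change of the 10 genes, had the lowest slope of the SUGP1 lines. In the SF3B1 and PHF5A mutant lines the slopes were 0.107 to 0.166. Whether the higher mitochondrial share in line 3 of SUGP1 E554K bears on its levels was not tested.

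**Figure D3:**
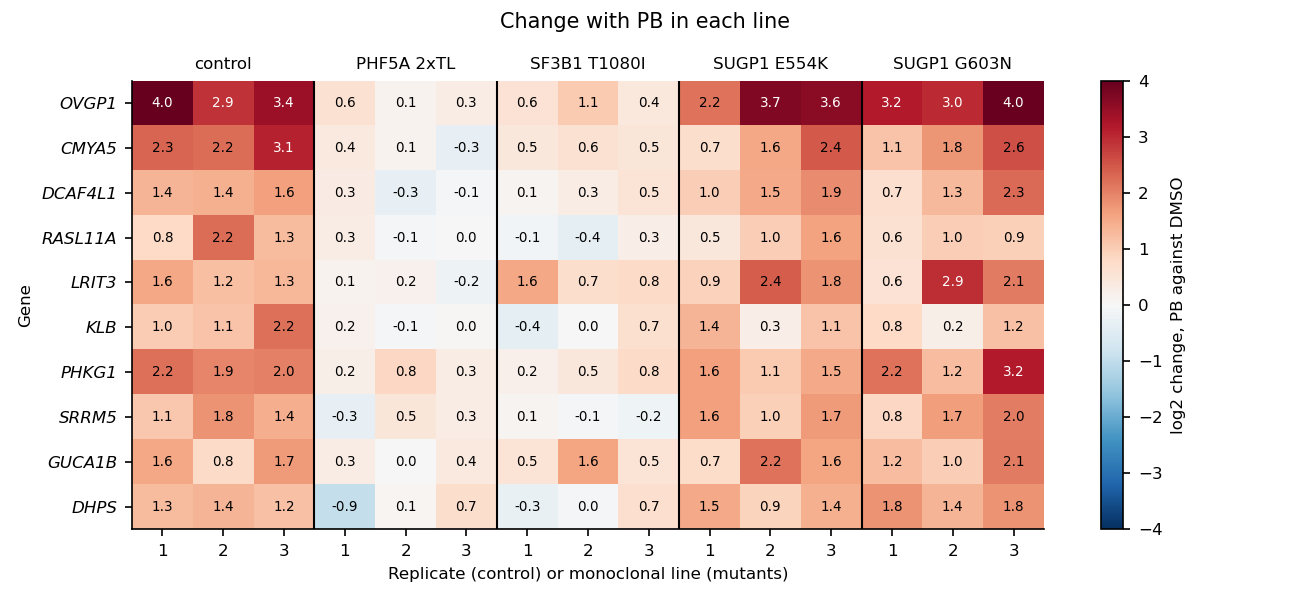
Log2 change with PB (colour and printed value) of each gene (rows) in each control replicate or mutant line (columns). All 30 values are above 0 in the control and in each SUGP1 genotype, as are 22 of 30 in SF3B1 T1080I and 21 of 30 in PHF5A 2xTL.

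The genes were also ranked among all genes of a minimum level, as a description, since the choice of genes used these fold changes. The level was the mean over all 30 libraries, so a gene could pass it through the PB libraries where it was high. OVGP1 (1.22 CPM with DMSO and 13.1 CPM with PB in the control) and CMYA5 (1.79 and 10.4 CPM) passed it in this way. Among the 11999 genes that averaged 4 CPM or more, OVGP1 had the largest positive log2 fold change with PB in the control and in SUGP1 E554K and the second largest in SUGP1 G603N. CMYA5 held places 3, 5 and 5 in the control, SUGP1 E554K and SUGP1 G603N, DCAF4L1 places 9, 6 and 7, DHPS 16, 10 and 6, and RASL11A 11, 23 and 49. ENSG00000269688, which is not among the 10, came next after OVGP1 in the control (3.16) and SUGP1 E554K (3.11) and just ahead of it in SUGP1 G603N (3.55 against 3.52). The other 5 genes had a mean below 4 CPM and take no place in this order, whatever their change (PHKG1 2.09 ± 0.30 in the control).

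Over the 30 libraries, the 5 genes whose log2 CPM followed that of OVGP1 most closely by Pearson correlation, among 16070 genes of at least 1 CPM, included VCPKMT (r = 0.929), CBX8 (0.926), ADAM20P1 (0.916) and TAF1D (0.912). Of the other 9 genes CMYA5 was the closest (0.904) and SRRM5 the farthest (0.745). These values mostly reflect 9 high libraries and 21 low ones. The level was a mean over all 30 libraries, so a gene could pass it through the PB libraries where it was high. ADAM20P1 was at 0.222 ± 0.0307 CPM with DMSO and 2.62 ± 1.05 CPM with PB in the control. By Spearman's rank correlation none of the 5 stayed in the first 5. In the control, TAF1D, a subunit of the RNA polymerase I factor SL1, went from 138 ± 10.7 to 273 ± 3.88 CPM, and CBX8, a Polycomb protein, from 19.4 ± 4.79 to 33.2 ± 3.45 CPM. Both rises are a description, since the genes were picked for their correlation with OVGP1.

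The genes beside the 10 were then examined, since these were chosen by position. In the control, 2 of 25 overlapping or nearest tested genes rose with PB, 1 fell and 22 were not called, where 4.3% of all tested genes were called and 0.987% rose. ENSG00000260948, an unnamed transcript 3.27 kb upstream of OVGP1 on the same strand, rose from 1.49 ± 0.315 to 5.86 ± 0.95 CPM (log2 fold change 1.97 ± 0.39, edgeR adjusted p = 0.00244). RRH, which encodes the retinal pigment epithelium opsin peropsin and lies 3.6 kb upstream of LRIT3 on its strand, rose from 2.25 ± 0.491 to 4.74 ± 0.97 CPM (1.07 ± 0.29, edgeR adjusted p = 0.0271). The call of RRH was lost without control replicate 1 or 3 of either treatment (0.93 to 1.05, edgeR adjusted p = 0.0975 to 0.149) and with no filter on low counts (adjusted p = 0.0652). TENT2, a poly(A) polymerase 3.23 kb upstream of CMYA5 on its strand, fell from 37.4 ± 0.785 to 21.9 ± 0.894 CPM (-0.78 ± 0.13, edgeR adjusted p = 0.000397). These 3 are among the 8 neighbours that lie upstream on the same strand. Of the other 17 none was called without a replicate block, and RFC1, the large subunit of the clamp loader of DNA replication, 40.5 kb upstream of KLB on the opposite strand, depended on the fit. It went from 156 ± 17.4 to 89.5 ± 6.92 CPM (-0.80 ± 0.25, edgeR adjusted p = 0.0645) and was called with the block (-0.80, adjusted p = 1.04e-06), by DESeq2 (adjusted p = 0.0343), with no filter (adjusted p = 0.0208) and with the control fitted alone (adjusted p = 0.000699). With the block 4 of the 25 neighbours were called, where 9.34% of all genes were.

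In the SUGP1 genotypes, where 4.32% (E554K) and 4.08% (G603N) of all tested genes were called and 1.02% and 1.09% rose, RRH rose by 1.33 ± 0.29 and 1.30 ± 0.29 on the log2 scale (edgeR adjusted p = 0.00588 and 0.00767). Without SUGP1 G603N DMSO replicate 2 the latter was 1.2 (edgeR adjusted p = 0.0528). ENSG00000260948 stood at 1.02 ± 0.38 in SUGP1 E554K (edgeR adjusted p = 0.141) and at 1.34 ± 0.38 in SUGP1 G603N (adjusted p = 0.0433), a call lost without replicate 1 or 3 with DMSO or replicate 2 or 3 with PB (1.00 to 1.19, adjusted p = 0.112 to 0.212). In SUGP1 E554K, TENT2 fell by 0.60 as a log2 value (edgeR adjusted p = 0.00528), not called without DMSO replicate 1 or PB replicate 2 (-0.51 and -0.48). It stood at -0.48 ± 0.13 in SUGP1 G603N (edgeR adjusted p = 0.0287), not called without replicate 1 or 2 of either treatment (-0.50 to -0.35). RFC1 was called lower in both SUGP1 genotypes: its log2 fold change was -0.997 ± 0.25 in E554K and -1.02 ± 0.25 in G603N (edgeR adjusted p = 0.017 and 0.0152). In SUGP1 E554K that call was lost without replicate 1 or 2 with DMSO or replicate 1 or 3 with PB (-0.98 to -0.91, edgeR adjusted p = 0.0604 to 0.0827). In SUGP1 G603N it was lost without DMSO replicate 2 (-0.46) and without PB replicate 1 or 3 (-0.75 and -0.83, edgeR adjusted p = 0.107 to 0.288). Of the 25 neighbours, 3 were called in SUGP1 E554K and 4 in SUGP1 G603N. With a replicate block these were 7 and 5, where 11.3% and 9.25% of all genes were called, and ENSG00000260948 was then called in SUGP1 E554K (1.00, edgeR adjusted p = 0.0394).

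In PHF5A 2xTL and SF3B1 T1080I none of the 25 neighbours was called by edgeR, with or without a replicate block. Without it 2 in each had an unadjusted p under 0.05, which 1.29% and 0.883% of all tested genes had. RRH was at 0.23 ± 0.29 and 0.59 ± 0.28, ENSG00000260948 at 0.07 ± 0.39 and 0.15 ± 0.38, TENT2 at -0.30 ± 0.13 and -0.36 ± 0.13, and RFC1 at -0.13 ± 0.24 and -0.20 ± 0.24. With the libraries of 1 SUGP1 genotype fitted alone, the calls of RRH, TENT2, ENSG00000260948 and, in SUGP1 G603N, RFC1 were lost there (edgeR adjusted p = 0.124 to 0.468), while RFC1 in SUGP1 E554K was called (adjusted p = 0.0353), and with no filter TENT2 in SUGP1 G603N was at adjusted p = 0.162. Differences between genotypes were not tested for these neighbours.

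**Figure D4:**
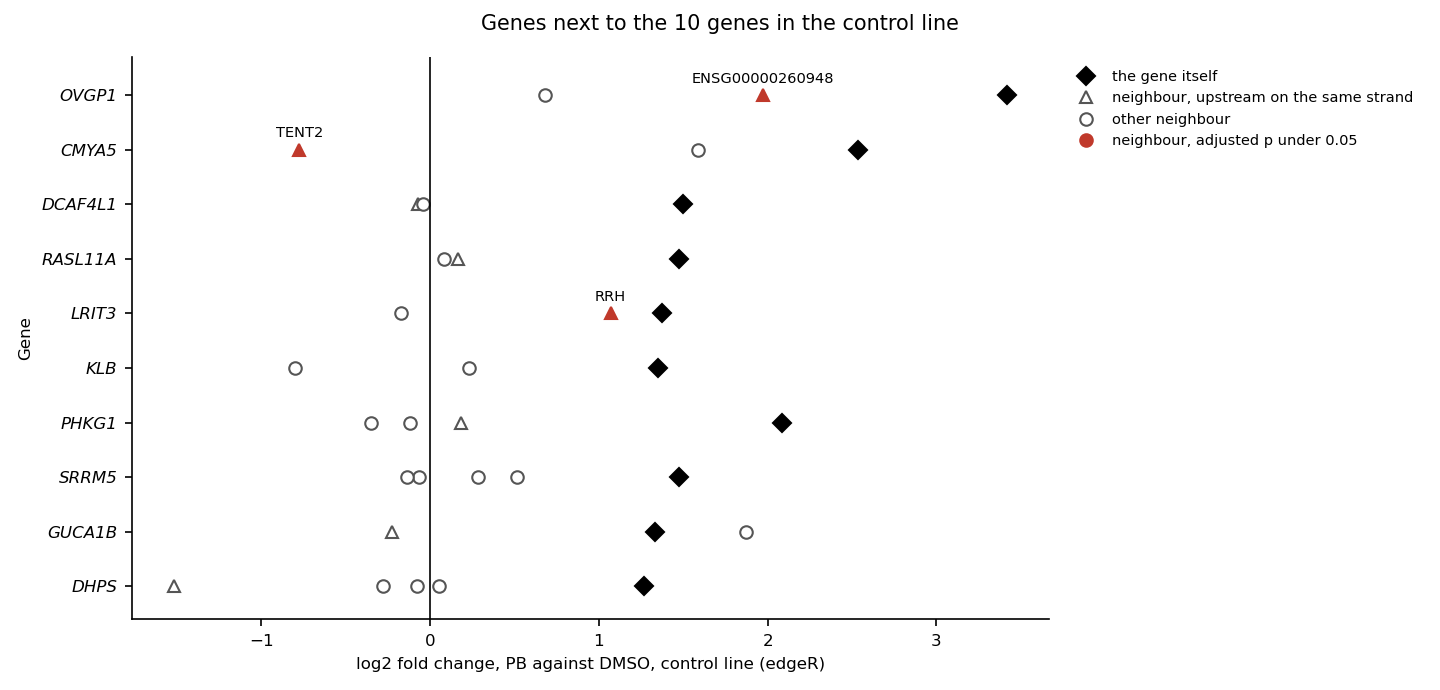
Log2 fold change with PB in the control (horizontal axis) of each of the 10 genes (diamonds) and of the tested genes that overlap it or lie next to it (triangles: upstream on the same strand; circles: others; red: edgeR adjusted p under 0.05 without a replicate block). ENSG00000260948 at 1.97 and RRH at 1.07 are the called neighbours above 0, and TENT2 at -0.78 is the one below.

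A gene expressed at 10 CPM or more in the control with DMSO ended within 25 kb upstream on the same strand for 8 of the 10 genes. The same held for 21.5% of 16240 tested protein-coding genes and for 25.1% of the 919 whose mean lay in the range of the 10. Within 10 kb it held for 2 of the 10 (12% and 14.5%), and within 50 kb for 8 (31.1% and 35.5%). This window and level were set after the positions had been seen, so the count is a description. The upstream genes were WDR77 (12.1 kb before OVGP1), TENT2 (3.23 kb before CMYA5), TMEM33 (21.1 kb before DCAF4L1), RPL21 (13.6 kb before RASL11A), GAR1 (23.5 kb before LRIT3), CHCHD2 (8.57 kb before PHKG1), MRPS10 (11.9 kb before GUCA1B) and TNPO2 (17.3 kb before DHPS). Of these 8, TENT2 was the one called with PB in the control without a replicate block.

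The families and partners of the 10 genes were listed by function. Of 93 relatives and partners, 83 were tested, and in the control 1 rose and 1 fell with PB, 2 of 83 where 4.3% of all tested genes were called. With a replicate block 2 were higher and 6 lower, where 9.34% of all genes were called. SRRM1, a splicing coactivator related to SRRM5, rose from 414 ± 21.9 to 567 ± 32.3 CPM (log2 fold change 0.45 ± 0.12, edgeR adjusted p = 0.0243), a call lost without any control library except PB replicate 3 (0.43 to 0.50, adjusted p = 0.0543 to 0.103). DCAF10, a CUL4-DDB1 substrate receptor in the list of DCAF4L1, fell from 36.0 ± 2.97 to 18.9 ± 2.27 CPM (-0.93 ± 0.15, edgeR adjusted p = 0.000188). DCAF10 fell as well in SUGP1 E554K (-0.97 ± 0.15) and SUGP1 G603N (-0.91 ± 0.15), and PHKA2, the liver regulatory subunit of phosphorylase kinase, fell in SUGP1 E554K (-0.61 ± 0.16, edgeR adjusted p = 0.025), not called without DMSO replicate 1 or 2 or PB replicate 3 (-0.55 to -0.47). With the libraries of that genotype fitted alone, PHKA2 in SUGP1 E554K (edgeR adjusted p = 0.225) and DCAF10 in SUGP1 G603N (adjusted p = 0.185) were not called. With a replicate block edgeR called 9 of the 83 relatives in SUGP1 E554K and 3 in SUGP1 G603N, against 2 and 1 without it. Of all tested genes, 11.3% and 9.25% were called with the block and 4.32% and 4.08% without it. In PHF5A 2xTL and SF3B1 T1080I edgeR called none of the 83 with or without the block (0.00318% of all genes without it). There 1 and 0 had an unadjusted p under 0.05, beside 1.29% and 0.883% of all genes without the block. The median log2 fold change of the 83 in the control was -0.076, beside 0.011 for all tested genes.

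By role, the other chitinase-like genes (CHI3L2, CHIT1, CHIA, CHID1 and CTBS) were not called, and CHID1, the most abundant, stood at 46.8 and 44.1 CPM with DMSO and PB in the control. Nor, without a replicate block, were the muscle genes listed with CMYA5, such as TTN at 14.0 and 13.4 CPM. The same held for the retinal partners of LRIT3, most of them below 1 CPM. It also held for the hypusine and polyamine genes listed with DHPS, where EIF5A stood at 570 and 701 CPM. With the block edgeR called EIF5A higher in the control (0.31, adjusted p = 0.0346), and EIF5A2 (-0.68, adjusted p = 0.00878) and DTNBP1, listed with CMYA5 (-0.43, adjusted p = 0.0315), lower. Each was called in the same direction in SUGP1 E554K, where TRIM54 was also lower (-0.41, adjusted p = 0.0263). AZIN1 was lower in SUGP1 G603N (-0.35, adjusted p = 0.0128). The liver and testis counterpart of PHKG1, PHKG2, was at 22.6 and 24.7 CPM and the glycogen phosphorylase PYGL at 196 and 200 CPM, beside the rise of PHKG1 from 1.15 to 4.92 CPM.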

How the data were processed

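Polyadenylated RNA was made into CORALL libraries and sequenced in paired 150-base reads, per the labels' protocols. The submitters' processing notes name UMI-tools, STAR, SAMtools 1.10 and the hg38 build. For the counting program, its annotation and its strand setting, nothing is given in the sources used here. The authors deposited estimated counts per gene, not normalized, of which 65.5% of values above 0 are not whole. They were rounded to whole numbers.

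Genes were filtered with filterByExpr (31495 of 61487 kept), scaled by TMM and fitted with edgeR 4.0.16 (R 4.3.3) by quasi-likelihood, with 1 mean for each of the 10 groups over 30 libraries, and p-values were adjusted over all tested genes (Benjamini-Hochberg), called under 0.05. CPM are counts per 1000000 of the scaled library size. Of 61487 identifiers, 58312 were found in GENCODE release 29, which gave positions and exons. The deposited lengths of RASL11A (2623 bases) and GUCA1B (2270) exceed the exon bases there (1624 and 1113), so the annotation used for counting differed.

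The 10 genes and all lists were chosen with earlier results of these data known. Named genes were the members, their overlapping and nearest tested genes, called or abundant relatives, and the 5 closest to OVGP1 by correlation, of which 1 is not reported here. A mutant's replicate number marks 1 monoclonal line in both treatments per the labels, and deviations from group means correlated by 0.424 to 0.837 within lines and 0.212 to 0.436 within control numbers over 11999 genes. The fit without this block is the main one. No pair of libraries held identical counts. With 3 libraries against 3, a permutation test cannot give a two-sided p below 0.1, and none was run. DESeq2 1.42.0, RLE scaling, no filter, a replicate block, fits of the compared genotypes alone and leaving out each library were tried. On simulated data the test made 6 false calls among 30205 genes.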

Additional observations from a re-analysis of the deposited data

How the results depend on the processing

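Among the 10 genes the tests made no call under any alternative except DESeq2, which called GUCA1B in SF3B1 T1080I against PHF5A 2xTL with DMSO (-1.11). All 30 descriptive changes kept their direction, and their folds moved by 0.681 to 1.49 times. Leaving out the first line, and the alternatives for neighbours and relatives, were chosen after seeing the data. Over all genes, PB in PHF5A 2xTL gave 1 call and 0 with no filter, with the compared libraries alone and without each library in turn (0 to 0). PB in SF3B1 T1080I gave 1 call, 3 by DESeq2, 0 with the compared libraries alone, 5 with a replicate block and 0 to 1 without a library. Both genotypes pooled gave 1 call, 7 by DESeq2 and 7 with a replicate block, and 1 to 2 without a library. SF3B1 T1080I against PHF5A 2xTL gave 0 calls with DMSO (67 by DESeq2, 11 with no filter, 1 with these libraries alone, 2 with a replicate block) and 0 with PB (135, 45, 2 and 7). Without SF3B1 T1080I replicate 3 these rose to 46 with DMSO and 71 with PB, and without any other library they were 0 to 3 and 0 to 4. The block changed no call of the 10 genes. How many neighbours, relatives and markers it called is given with those lists, and not every such gene is named. The causes of these differences were not tested.

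Without 1 library, uncalled changes near 0 turned sign: in PHF5A 2xTL, CMYA5 ranged from -0.351 to 0.365, DCAF4L1 from -0.389 to 0.356, RASL11A from -0.000224 to 0.128, LRIT3 from -0.07 to 0.18, KLB from -0.192 to 0.218 and DHPS from -0.337 to 0.185. In SF3B1 T1080I, RASL11A ranged from -0.225 to 0.141, KLB from -0.0663 to 0.25 and DHPS from -0.0769 to 0.329. With protein-coding neighbours alone, 1 rose. By Spearman correlation, 0 of the 5 genes closest to OVGP1 remained. The spread between 3 libraries, with 30 to 1168 counts per gene, limits how small a change could be called.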
